A study of Rattus norvegicus with 8 samples.

Results

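The dystrophin-glycoprotein complex is described here in outflow veins of rats through 10 of its genes: Dmd, Utrn, Dag1, Sgca, Sgcb, Sgcd, Sgce, Sspn, Dtna and Sntb1. They were matched by gene name among the 32623 genes counted in each vein, and all 10 were among the 11682 genes that had enough reads to be tested. RNA was sequenced from the epigastric vein of 8 Sprague Dawley rats, 21 days after that vein had been joined to the femoral artery as an arteriovenous fistula (AVF). In 4 rats (3 females, 1 male) the vein was wrapped in a bilayer PLA/PLGA nanofiber scaffold loaded with β-aminopropionitrile (BAPN), an inhibitor of lysyl oxidases, the enzymes that crosslink collagen and elastin, and in 4 rats (2 females, 2 males) in the vehicle scaffold without drug. Every animal thus carried both a fistula and a scaffold. No unoperated or unwrapped vein was part of the comparison, and the age of the rats was not given in the sources used here.

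The complex ties the actin cytoskeleton of a muscle cell to laminin outside the cell. Dystrophin, or its paralog utrophin, binds actin inside the cell and dystroglycan in the membrane, and the sugar chains of dystroglycan bind laminin in the basement membrane. Sarcoglycans and sarcospan stabilise this link, while dystrobrevins and syntrophins dock signaling proteins on its inner side. It is best known from skeletal muscle, where loss of its subunits causes muscular dystrophies, and it is also found in smooth muscle cells, which sense wall stretch.

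Libraries of the BAPN group held 45039451 to 52241007 counted reads and those of the vehicle group 19548203 to 22442050. Even the shallowest BAPN library had 2.01 times the reads of the deepest vehicle library, so depth and treatment cannot be told apart (exact two-sided permutation test on log2 depth, p = 0.0286, the lowest value possible for 4 against 4). Levels are given as CPM, the reads of a gene scaled to the size of its library with TMM factors, and 1 CPM stood for between 20.23 and 50.7 reads. Log2 fold changes compare BAPN with vehicle, SE is the standard error of the same contrast in limma-voom, whose estimates can differ from those of edgeR, and FDR is the p-value of edgeR's quasi-likelihood test adjusted by the Benjamini-Hochberg method over all 11682 tested genes. A gene is called lower or higher where its FDR was below 0.05. The labels number the libraries of a group as replicates, and each was counted as 1 rat. P-values thus set a group difference against the spread between these libraries.

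Of the 10 complex genes, 6 were called lower in BAPN-treated veins (Dmd, Utrn, Dag1, Sgca, Sspn and Dtna), beside 9.25% of all tested genes. None was called higher by edgeR, beside 7.5% of all tested genes, and none was higher at an unadjusted p below 0.05 or by DESeq2. The 6 genes were 36.9% to 71.5% lower with BAPN. In each of them all 4 BAPN libraries lay below all 4 vehicle libraries, a separation that 11.9% of all tested genes showed. Sgcd, Sgce and Sntb1 had log2 fold changes below 0 that did not pass the test, and Sgcb was the one gene above 0. In 0 of the 10 genes did all BAPN libraries lie above all vehicle libraries, which 12.7% of tested genes showed. The median log2 fold change was -0.91 over the 10 genes and 0.02 over all tested genes. The plot of CPM by library shows where the groups are apart and where they overlap.

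**Figure D1:**
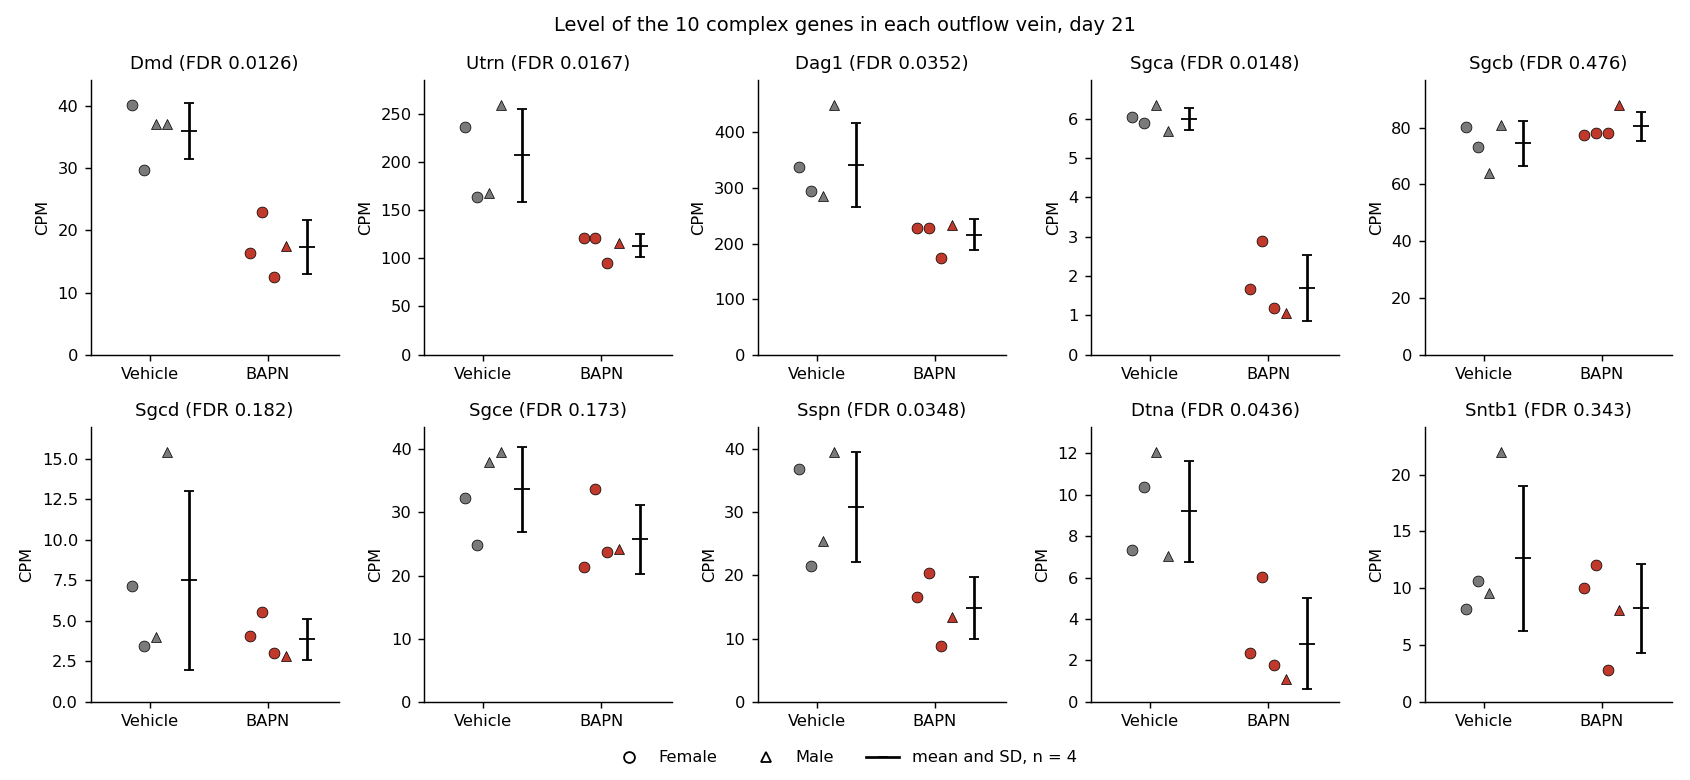
CPM of each of the 10 complex genes in the 4 vehicle and 4 BAPN veins, 1 point per library, circles for females and triangles for males, with the group mean and SD beside them and the FDR of edgeR above each panel. Each axis starts at 0. Points of the groups do not overlap for Dmd, Utrn, Dag1, Sgca, Sspn and Dtna, and overlap for Sgcb, Sgcd, Sgce and Sntb1.

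Promoter sequence is printed for 4 genes, chosen to set 3 that fell (Dmd, Sgca and Sspn) beside the 1 whose log2 fold change was above 0 (Sgcb). Each is the 250 bases before an annotated transcript start in RefSeq, rat build GRCr8, written 5′ to 3′ on the strand of the gene. RefSeq windows were matched for 8 of the 10 genes (10 windows, since Dmd has 3), and Dag1 and Sntb1 had none. Capitals mark a CArG box, the site bound by serum response factor in many smooth muscle genes, and E-boxes (CANNTG, the site bound by basic helix-loop-helix factors). The Dmd window is at chrX:51205836-51206085 on the plus strand, that of Sgca at chr10:80416076-80416325 on the minus strand, that of Sspn at chr4:180627632-180627881 on the plus strand and that of Sgcb at chr14:34917413-34917662 on the plus strand.
Dmd: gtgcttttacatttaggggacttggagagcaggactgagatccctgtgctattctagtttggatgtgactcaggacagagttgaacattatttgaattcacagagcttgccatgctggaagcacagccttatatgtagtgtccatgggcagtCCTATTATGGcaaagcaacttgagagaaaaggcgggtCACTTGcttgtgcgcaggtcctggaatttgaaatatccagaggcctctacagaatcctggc
Sgca: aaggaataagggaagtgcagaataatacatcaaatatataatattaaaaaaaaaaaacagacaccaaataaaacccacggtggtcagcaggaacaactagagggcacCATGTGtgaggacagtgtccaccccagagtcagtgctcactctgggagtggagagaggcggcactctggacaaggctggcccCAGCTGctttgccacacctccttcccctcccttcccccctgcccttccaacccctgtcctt
Sspn: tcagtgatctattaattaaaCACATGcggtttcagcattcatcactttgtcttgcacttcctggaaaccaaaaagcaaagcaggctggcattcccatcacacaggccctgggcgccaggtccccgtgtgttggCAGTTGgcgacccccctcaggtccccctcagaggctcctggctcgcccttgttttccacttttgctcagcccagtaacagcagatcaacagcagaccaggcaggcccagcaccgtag
Sgcb: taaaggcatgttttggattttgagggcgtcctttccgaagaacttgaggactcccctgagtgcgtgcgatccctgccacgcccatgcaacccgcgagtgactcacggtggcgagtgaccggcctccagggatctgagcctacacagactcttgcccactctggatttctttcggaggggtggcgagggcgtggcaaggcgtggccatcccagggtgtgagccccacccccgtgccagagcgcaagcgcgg

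The first Dmd window held 1 CArG box, 98 bases before the start, and 1 E-box 61 bases before it. A CArG box was found on either strand in 1.5% of the 33469 rat promoters in the same table, and an E-box in 65.5%. Sgca held 2 E-boxes, at 143 and 61 bases before the start, and Sspn held 2, at 230 and 117 bases. The Sgcb window held neither motif. GC content ran from 46.8% to 67.2% and the number of CpG dinucleotides from 2 to 20 over the 10 windows, against medians of 51.2% and 5 over all promoters, with Sgcb at 62.8% and 18, the first Dmd window at 46.8% and 2, another Dmd window at 62.0% and 14, Utrn at 55.2% and 15, and Sgce at 67.2% and 20. In the other windows, Sgcd held 1 E-box and Dtna 3, Utrn held neither motif, and Sgce and the remaining Dmd windows held GC boxes (GGGCGG, found in 30.5% of promoters) but neither CArG box nor E-box. The N-box TTCCGG, the ETS-family site known from the utrophin promoter, was in none of the 10 windows and in 12.6% of promoters. These matches are letters in fixed windows, and binding was not measured.

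Dmd (ENSRNOG00000046366) encodes dystrophin, the rod-shaped protein that joins actin to the membrane complex. Its level was 16.3, 23.0, 12.5 and 17.5 CPM in BAPN 1 to 4 and 40.3, 29.7, 37.2 and 37.1 CPM in Vehicle 1 to 4. The highest BAPN library, BAPN 2, stayed below the lowest vehicle library, Vehicle 2. The means were 17.3 ± 4.34 and 36.1 ± 4.49 CPM (SD, n = 4 each). Dmd was lower with BAPN by a log2 fold change of -1.06 (SE 0.187, edgeR FDR = 0.0126), and it was also called in each of the 8 fits that left out 1 library (FDR at most 0.0422).

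Utrn (ENSRNOG00000011058) encodes utrophin, the paralog that fills the same place in many cells outside mature skeletal muscle. It reached 120.5, 120.5, 95.4 and 116 CPM in BAPN 1 to 4 and, in Vehicle 1 to 4, 236, 164, 168 and 259 CPM. The BAPN libraries sat close together below the vehicle libraries, which spread over a wider range (113 ± 12.0 against 207 ± 48.3 CPM, SD, n = 4 each). The log2 fold change was -0.87 (SE 0.174, edgeR FDR = 0.0167). It was called in 7 of the 8 fits that left out 1 library, and without Vehicle 1 the FDR was 0.0532.

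Because the pair of paralogs take the same place, their balance was compared within each library, where it does not depend on library size. For every 100 reads of Utrn there were 13.6, 19.1, 13.1 and 15.1 reads of Dmd in BAPN 1 to 4, compared with 17.0, 18.2, 22.1 and 14.3 in Vehicle 1 to 4. The groups overlapped. The log2 ratio of Dmd to Utrn was -2.73 ± 0.245 with BAPN and -2.50 ± 0.259 with vehicle (SD, n = 4 each), a difference of -0.23 that was within the spread between libraries (exact two-sided permutation test, p = 0.257). Both genes were lower, and a shift of one relative to the other was not detectable with 4 veins per group.

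Dag1 (ENSRNOG00000019400) encodes dystroglycan, whose α part holds laminin outside the cell and whose β part holds dystrophin or utrophin inside it. It was at 229, 228, 175 and 233 CPM in BAPN 1 to 4 and, in Vehicle 1 to 4, at 338, 295, 285 and 450 CPM. BAPN 3 stood below the other BAPN libraries, and all 4 were below the vehicle range. The means were 216 ± 27.7 and 342 ± 75.5 CPM (SD, n = 4 each), and the log2 fold change was -0.66 (SE 0.173, edgeR FDR = 0.0352). This call depended on single libraries, since it held without Vehicle 2 or without Vehicle 3 and was lost in each of the other 6 fits that left out 1 library (FDR at most 0.0907).

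The sarcoglycans, single-pass membrane proteins that form a subcomplex beside dystroglycan, gave 1 gene called lower and 3 that did not pass the test. Sgca (ENSRNOG00000003998) encodes α-sarcoglycan, which is usually found in striated muscle, while ε-sarcoglycan (Sgce) is its close relative with a wider distribution. Sgca was at 1.66, 2.90, 1.18 and 1.06 CPM in BAPN 1 to 4 and at 6.04, 5.88, 6.36 and 5.68 CPM in Vehicle 1 to 4. These values rest on 51 to 147 reads in the BAPN libraries and 119 to 151 reads in the vehicle libraries. All vehicle libraries were close to each other and far above BAPN 2, the highest of the BAPN libraries. With means of 1.70 ± 0.840 and 5.99 ± 0.283 CPM (SD, n = 4 each), Sgca had a log2 fold change of -1.81 (SE 0.321, edgeR FDR = 0.0148). Leaving out any 1 of the 8 libraries kept the call (FDR at most 0.0456).

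In RefSeq GRCr8 the annotated span of Sgca overlaps that of Col1a1, the gene of the α1 chain of type I collagen, which was at 10280 to 15810 CPM in BAPN libraries and 11770 to 48900 CPM in vehicle libraries. The counting tool and its strand setting are not given in the sources used here, so reads of the shared stretch cannot be told apart.

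Sgce (ENSRNOG00000046905) was at 21.4, 33.7, 23.7 and 24.2 CPM in BAPN 1 to 4 and at 32.3, 24.8, 38.0 and 39.6 CPM in Vehicle 1 to 4. The groups overlapped, with BAPN 2 above Vehicle 1 and 2, and the log2 fold change of -0.39 did not pass the test (SE 0.190, edgeR FDR = 0.173). Sgcb (ENSRNOG00000002135), the gene of β-sarcoglycan, a core subunit on which assembly of the others depends, was at 77.4, 78.1, 78.3 and 88.1 CPM in BAPN 1 to 4 and at 80.2, 73.1, 63.9 and 81.1 CPM in Vehicle 1 to 4. Here the BAPN libraries lay inside or above the vehicle range, and the log2 fold change was 0.11 (SE 0.110, edgeR FDR = 0.476). Sgcd (ENSRNOG00000002372), the gene of δ-sarcoglycan, which pairs with β-sarcoglycan, was at 4.07, 5.56, 3.02 and 2.80 CPM in BAPN 1 to 4 and at 7.12, 3.46, 4.00 and 15.4 CPM in Vehicle 1 to 4. Vehicle 4 stood far above the rest, Vehicle 2 and Vehicle 3 lay within the BAPN range, and the log2 fold change of -0.96 had a large error (SE 0.450, edgeR FDR = 0.182) and was -0.33 without Vehicle 4.

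Ratios between these subunits within a library describe how their balance differed, without a test, since they were chosen after the values were seen. For every 100 reads of Sgce there were 7.77, 8.60, 4.96 and 4.40 reads of Sgca in BAPN 1 to 4, compared with 18.7, 23.7, 16.7 and 14.4 in Vehicle 1 to 4. The log2 ratio differed by -1.55 between the groups, which did not overlap. The ratio of Sgcb, which did not pass the test, to Dag1, which was called lower, was in the other direction, with 33.9, 34.3, 44.8 and 37.8 reads for every 100 of Dag1 in BAPN 1 to 4, compared with 23.7, 24.7, 22.4 and 18.0 in Vehicle 1 to 4. That log2 ratio was 0.76 higher with BAPN, again with no overlap. Sgca to Sgcb (difference in log2 ratio -2.05) and Sgca to Dmd (-0.85) did not overlap either. The groups overlapped for Sgcd to Sgcb (-0.86) and for Dmd to Dag1 (-0.43).

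**Figure D2:**
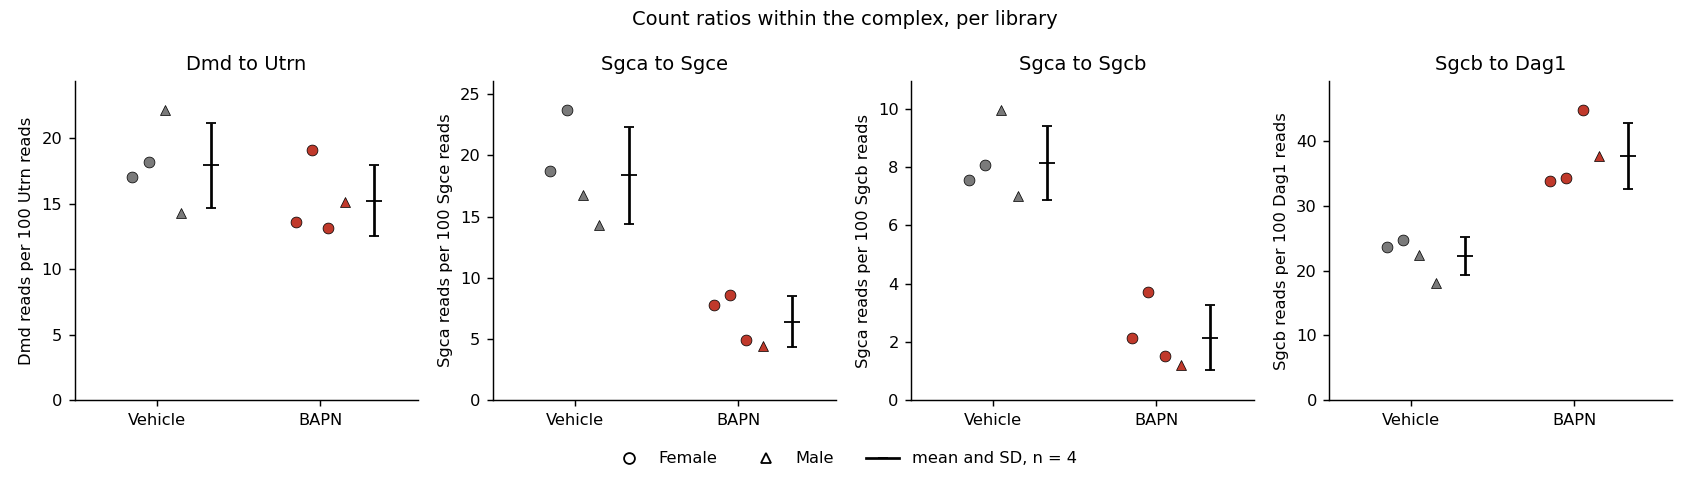
Reads of one complex gene per 100 reads of another in the same library, 1 point per vein (circles females, triangles males), group means with SD, and axes from 0. Dmd per 100 reads of Utrn overlaps between the groups, Sgca per 100 reads of Sgce lies between 4.40 and 8.60 with BAPN and between 14.4 and 23.7 with vehicle, Sgca per 100 reads of Sgcb is lower in every BAPN library than in any vehicle library, and Sgcb per 100 reads of Dag1 is higher in every BAPN library than in any vehicle library.

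Sspn (ENSRNOG00000001807) encodes sarcospan, a tetraspanin-like protein that holds the sarcoglycans and dystroglycan together. It was at 16.5, 20.4, 8.86 and 13.5 CPM in BAPN 1 to 4 and at 36.8, 21.5, 25.4 and 39.6 CPM in Vehicle 1 to 4. The groups met without overlapping, BAPN 2 being just under Vehicle 2. The log2 fold change was -1.06 (14.8 ± 4.88 against 30.8 ± 8.75 CPM, SD, n = 4 each, SE 0.281, edgeR FDR = 0.0348). The call held without BAPN 2 or without Vehicle 2 and was lost in each of the other 6 fits that left out 1 library (FDR at most 0.0927). Reads of Sspn per 100 reads of Dmd overlapped between the groups, with a difference in log2 ratio of 0.01.

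On the inner side of the complex, Dtna (ENSRNOG00000016671) encodes α-dystrobrevin, which binds dystrophin and carries syntrophins. It was at 2.37, 6.02, 1.78 and 1.09 CPM in BAPN 1 to 4 and at 7.35, 10.4, 12.1 and 7.02 CPM in Vehicle 1 to 4. BAPN 2 was again the highest BAPN library and came close to Vehicle 4. The log2 fold change was -1.71 (2.81 ± 2.20 against 9.21 ± 2.44 CPM, SD, n = 4 each, SE 0.454, edgeR FDR = 0.0436), and without BAPN 2 the log2 fold change was -2.41 with an FDR of 0.0159, while the call was lost when any other library was left out (FDR at most 0.112). Sntb1 (ENSRNOG00000004821), the gene of β1-syntrophin, an adaptor for signaling proteins, was at 9.998, 12.03, 2.84 and 8.06 CPM in BAPN 1 to 4 and at 8.19, 10.7, 9.60 and 22.0 CPM in Vehicle 1 to 4. Those groups overlapped, and the log2 fold change of -0.62 did not pass the test (SE 0.474, edgeR FDR = 0.343). It was -0.20 without Vehicle 4 and -0.33 without BAPN 3.

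BAPN 2 had the highest level of the BAPN libraries for Dmd, Sgca, Sgcd, Sgce, Sspn, Dtna and Sntb1. Its summed level of smooth muscle markers was also the highest of that group, at 4504 CPM against 1722 to 2366 CPM in the other BAPN libraries. Without BAPN 2, edgeR called 5 of the 10 genes lower, all but Dag1 of the 6, beside 751 of all 11682 tested genes.

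Further genes of the complex that are not among the 10 were taken from a list of 7. Of these, 3 were tested and 1 was called lower, beside 9.25% of all tested genes. Sntb2, the gene of β2-syntrophin, was at 4.90, 5.33, 1.71 and 2.78 CPM in BAPN 1 to 4 and at 12.4, 9.29, 7.58 and 18.2 CPM in Vehicle 1 to 4 (log2 fold change -1.69, SE 0.402, edgeR FDR = 0.0263). That call was lost without BAPN 3, BAPN 4, Vehicle 1 or Vehicle 4 (FDR at most 0.0677), with sex as a covariate (FDR = 0.0562) and in females alone (FDR = 0.141).

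The other 2 tested genes of that list did not pass the test. Dtnb, the gene of β-dystrobrevin, was at -0.09 (edgeR FDR = 0.695), and Drp2, a dystrophin-related gene known from Schwann cells, was at -0.94 (edgeR FDR = 0.13). Without Vehicle 2, Drp2 was called lower as well (-1.19, edgeR FDR = 0.0467). The sign for Dtnb turned under other settings. Sntg2 had too few reads to be tested, Sntg1 and Dytn had no read in any library, and Sgcz was not analysed here.

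**Figure D3:**
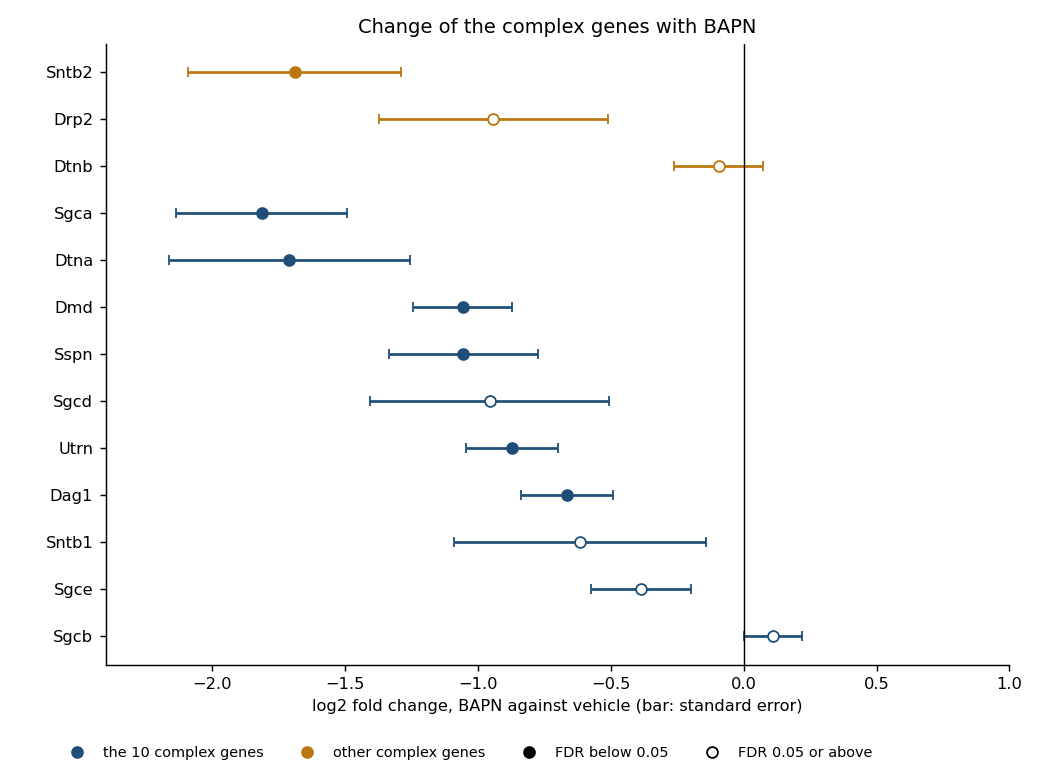
Log2 fold change (BAPN against vehicle) of the 10 complex genes and of the 3 other tested complex genes, with bars for 1 standard error. Filled points have an edgeR FDR below 0.05. Sgca, Dtna and Sntb2 lie farthest to the left, and Sgcb and Dtnb lie near 0.

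Dystroglycan binds laminin only after a chain of enzymes has built its O-mannose sugars, and 14 of 16 listed genes of this chain were tested. By edgeR, 0 were called lower, beside 9.25% of all tested genes, and 1 of the 14 was called higher, beside 7.5%. The median log2 fold change was -0.03. At an unadjusted p below 0.05, 4 were lower, while 2 were called lower by DESeq2 and 0 by limma-voom. Dpm1, a subunit of the enzyme that makes the mannose donor, was the gene called higher (log2 fold change 0.39, edgeR FDR = 0.0439). Of the 8 fits that left out 1 library, the one without Vehicle 2 kept this call (FDR at most 0.108 in the others), and limma-voom, library totals alone, no filter on low counts, a sex covariate and females alone did not make it. Pomgnt2 (-0.55, edgeR FDR = 0.0754), which extends the chain, stayed above the threshold, as did Pomgnt1 (0.11, FDR = 0.459) and B3galnt2 (0.00, FDR = 0.989).

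Among the matrix ligands of dystroglycan, 11 of 17 listed genes were tested. All 11 had a log2 fold change below 0 (median -0.70), as had 5654 of all 11682 tested genes. Of the 11, 4 were called lower, beside 9.25% of all tested genes. Lamb2, the gene of the laminin β2 chain found in mature vascular basement membranes, averaged 485.6 ± 189.1 CPM in vehicle veins and 212.5 ± 61.2 CPM in BAPN-treated veins (SD, n = 4 each), a log2 fold change of -1.19 (SE 0.304, edgeR FDR = 0.0321). Egflam, the gene of pikachurin, a dystroglycan-binding matrix protein, was lower by a log2 fold change of -1.17 (edgeR FDR = 0.0273), as was Nrxn2, a neurexin, at -2.20 (edgeR FDR = 0.0193). The fourth was Lama2, named after its value was seen, the laminin α2 chain of muscle basement membranes (-0.93, edgeR FDR = 0.0338). Lamb1 (-0.19, FDR = 0.697) and Lamc1 (-0.70, FDR = 0.231), the chains that pair with many laminin α chains, did not pass the test. Of the 8 fits that left out 1 library, Nrxn2 was called in 7, and without Vehicle 1 its FDR was 0.05165. Lamb2 was called in 4 of these fits, Egflam in 2 and Lama2 in 2. In all, edgeR called 0 ligands lower without Vehicle 1 (4 at an unadjusted p below 0.05). It called 1 each without BAPN 3, BAPN 4 or Vehicle 4, 2 without Vehicle 3, and 3 or 4 without any other library. These fits called 247 (without Vehicle 1) to 1288 (without Vehicle 2) of all tested genes lower. With sex as a covariate 1 ligand was called, beside 541 of all tested genes called lower.

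Proteins that sit against the complex inside the cell gave 7 genes called lower of 14 tested, beside 9.25% of all tested genes. The list held 20 genes, and its median log2 fold change was -0.65. The intermediate filament gene Synm, whose product synemin binds dystrobrevin, averaged 68.5 ± 13.4 CPM in vehicle veins and 25.2 ± 6.93 CPM in BAPN-treated veins (SD, n = 4 each), a log2 fold change of -1.44 (edgeR FDR = 0.00876). Pgm5, the gene of aciculin, a dystrophin- and utrophin-binding protein of cell adhesions, fell by 1.65 on the log2 scale (19.0 ± 6.30 against 59.7 ± 19.4 CPM, SD, n = 4 each, edgeR FDR = 0.0111). Cavin1 and Cavin2, which shape caveolae, were lower by log2 fold changes of -1.03 (FDR = 0.0177) and -1.13 (FDR = 0.0155). Plec and Ahnak, large linker proteins, were at -0.34 (FDR = 0.223) and 0.00 (FDR = 0.99). Leaving out 1 library gave between 4 (without Vehicle 1) and 9 (without Vehicle 2) genes called lower in this list. The same 2 fits called 247 and 1288 of all tested genes lower.

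Integrins, talin and vinculin form the other main link from actin to the matrix, and 2 of 20 tested genes of that link were called lower by edgeR and 8 by DESeq2 (median log2 fold change -0.32), beside 1081 and 1763 of all 11682 tested genes. Itgb1, the common β1 integrin chain, was at 0.16 (FDR = 0.521) and Tln1, the gene of talin, at -0.17 (FDR = 0.498). Those called by edgeR were Tns1, the gene of tensin 1 (-1.38, FDR = 0.0225), and Lims2, an adaptor of the same adhesions (-0.78, FDR = 0.0333). The Tns1 call was lost without BAPN 4 or Vehicle 1 (FDR at most 0.0636) and the Lims2 call without BAPN 3, Vehicle 1, Vehicle 3 or Vehicle 4 (FDR at most 0.0833), so that 0 of the 20 were called without Vehicle 1 (7 at an unadjusted p below 0.05). Itga7, the laminin-binding integrin chain of muscle, was at -1.02 and did not pass the test (FDR = 0.0637). The difference between the complex and the integrin link was not tested.

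**Figure D4:**
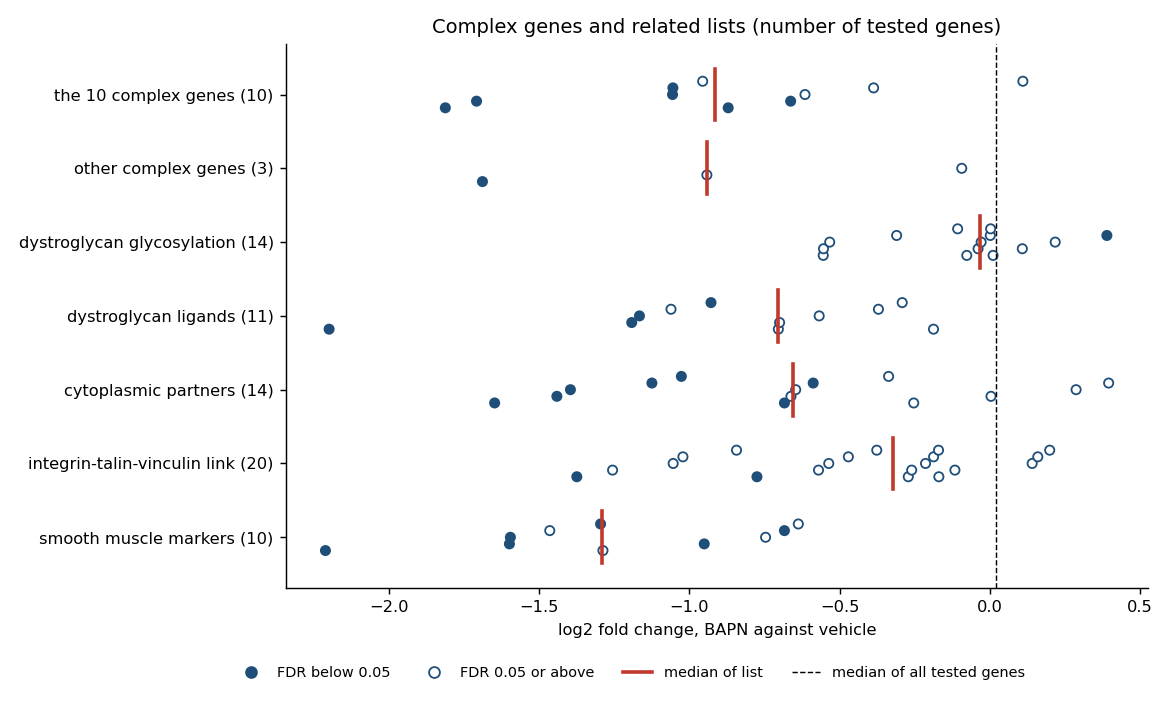
Log2 fold change of every tested gene in the complex and in related lists, 1 point per gene, with the number of tested genes beside each list name. Filled points have an edgeR FDR below 0.05, red bars are list medians and the dashed line is the median of all 11682 tested genes (0.02). The medians range from -1.29 for smooth muscle markers to -0.03 for the glycosylation enzymes.

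Smooth muscle markers moved with the complex. Of 10 such genes, all had a log2 fold change below 0, as had 5654 of all 11682 tested genes. Called lower were 6 of them (median -1.29), beside 9.25% of all tested genes. Tagln (edgeR FDR = 0.217) and Acta2 (edgeR FDR = 0.26), highest in mean CPM, were not called, and their groups overlapped. Des was called and is also counted among the cytoplasmic partners. The summed level of the 10 was 1722 to 4504 CPM with BAPN and 3493 to 6459 CPM with vehicle. None of the 10 was at 0 in any library, so smooth muscle RNA was present in every vein. In bulk RNA, fewer cells of a type and less RNA per cell cannot be told apart. The part of smooth muscle content in the levels of the complex was not tested.

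The complex genes were also set against a smooth muscle index, the mean log2 CPM of the 10 markers, as a description without a test. The index was 6.46 ± 0.664 with BAPN and 7.81 ± 0.284 with vehicle (SD, n = 4 each), and the groups did not overlap. Relative to it, Dmd differed between the groups by 0.26, Sspn by 0.27 and Utrn by 0.50 on the log2 scale (BAPN minus vehicle). Sgcd differed by 0.60, Sntb1 by 0.66 and Dag1 by 0.70, and the groups overlapped for each of these genes. Sgca remained lower relative to the index, by -0.59, with no overlap, and Dtna by -0.63, with overlap. Sgcb and Sgce were higher relative to the index by 1.46 and 0.96, and for both the BAPN libraries were all above the vehicle libraries.

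Markers of other cell types are given for the same libraries, and their part in the levels of the complex was not tested. Over all tested genes, edgeR called 9.25% lower and 7.5% higher. Endothelial markers summed to 478.9 to 635.9 CPM with BAPN and 804.5 to 1533 CPM with vehicle, without overlap. Vwf made up 58.55 to 102.2 and 106.2 to 767.7 CPM of these sums. Of 7 endothelial markers tested, 2 (Vwf and Tek) were called lower by edgeR, 4 by DESeq2 and 1 by limma-voom. In fibroblast markers the sums were 24220 to 37590 CPM and 31230 to 96290 CPM, and 1 of 8 (Gsn) was called lower by edgeR and 5 by DESeq2. Of these sums, Col1a1 made up 10280 to 15810 and 11770 to 48900 CPM, and Col3a1 9916 to 16550 and 13360 to 39550 CPM. Of the 8, 7 had a log2 fold change below 0, with Lum at -0.06, and Pi16 was at 0.12. Leukocyte markers summed to 2673 to 3742 CPM with BAPN and 1366 to 3172 CPM with vehicle, and all 8 tested had a log2 fold change above 0 (median 0.91), with 1 (Cd79b) called higher by edgeR and 3 by DESeq2. For adipocyte markers the sums were 1107 to 2945 CPM and 497.9 to 1763 CPM, of which Fabp4 made up 1014 to 2904 and 412.8 to 1572 CPM. Fabp4 was the one adipocyte marker with a log2 fold change above 0, the other 6 tested were below 0 (list median -1.43), and 1 of 7 tested (Plin1) was called lower by edgeR and 6 by DESeq2. Schwann cell and nerve markers summed to 51.7 to 293.8 CPM and 66.6 to 127.6 CPM, and 0 of 6 tested were called by edgeR or DESeq2, with 1 higher at an unadjusted p below 0.05. Skeletal muscle markers, the tissue in which Sgca is best known, summed to 19.6 to 33.4 CPM with BAPN and 21.3 to 80.2 CPM with vehicle, and 0 of 2 tested were called by edgeR, while 1 (Acta1) was lower at an unadjusted p below 0.05 and by DESeq2. Of the 12 skeletal muscle genes listed in the files, Mb and Myh7 had no read in most libraries.

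Whether the treatment effect on the complex differed between the sexes could not be resolved, since the BAPN group held 1 male, which was assumed to vary like the others. A fit with a treatment by sex term called 0 of all 11682 genes by edgeR, and among the 10 genes 0 had an unadjusted p below 0.05. The effect in males minus that in females was -1.75 on the log2 scale for Dtna (FDR = 0.514) and -1.47 for Sgcd (FDR = 0.619).

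Gene length moved with the result as well. In RefSeq GRCr8, Dmd, Utrn, Sgcd and Dtna span more than 300 kb, a class in which 26.3% of 262 tested genes were called lower with a median log2 fold change of -0.54. Sntb1 falls between 100 and 300 kb, where 17.4% were called lower. Dag1, Sgce and Sspn lie between 30 and 100 kb (9.69% called lower), and Sgca and Sgcb between 10 and 30 kb (7.19% called lower, median 0.08). The part of gene length in the result was not tested.

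The calls were repeated under 11 other settings of the fit, and 7 of them called the same 6 genes. With sex as a covariate, Dmd, Utrn and Sgca were called, with log2 fold changes of -1.04, -0.85 and -1.93. In the 5 females alone, edgeR called 89 of all 11682 genes and 0 of the 10, of which 6 had an unadjusted p below 0.05 with BAPN lower, and the FDR values of Utrn, Sgca and Dmd were 0.0931, 0.104 and 0.107. No sign changed for any of the 10 genes in these settings or in the 8 fits that left out 1 library.

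**Figure D5:**
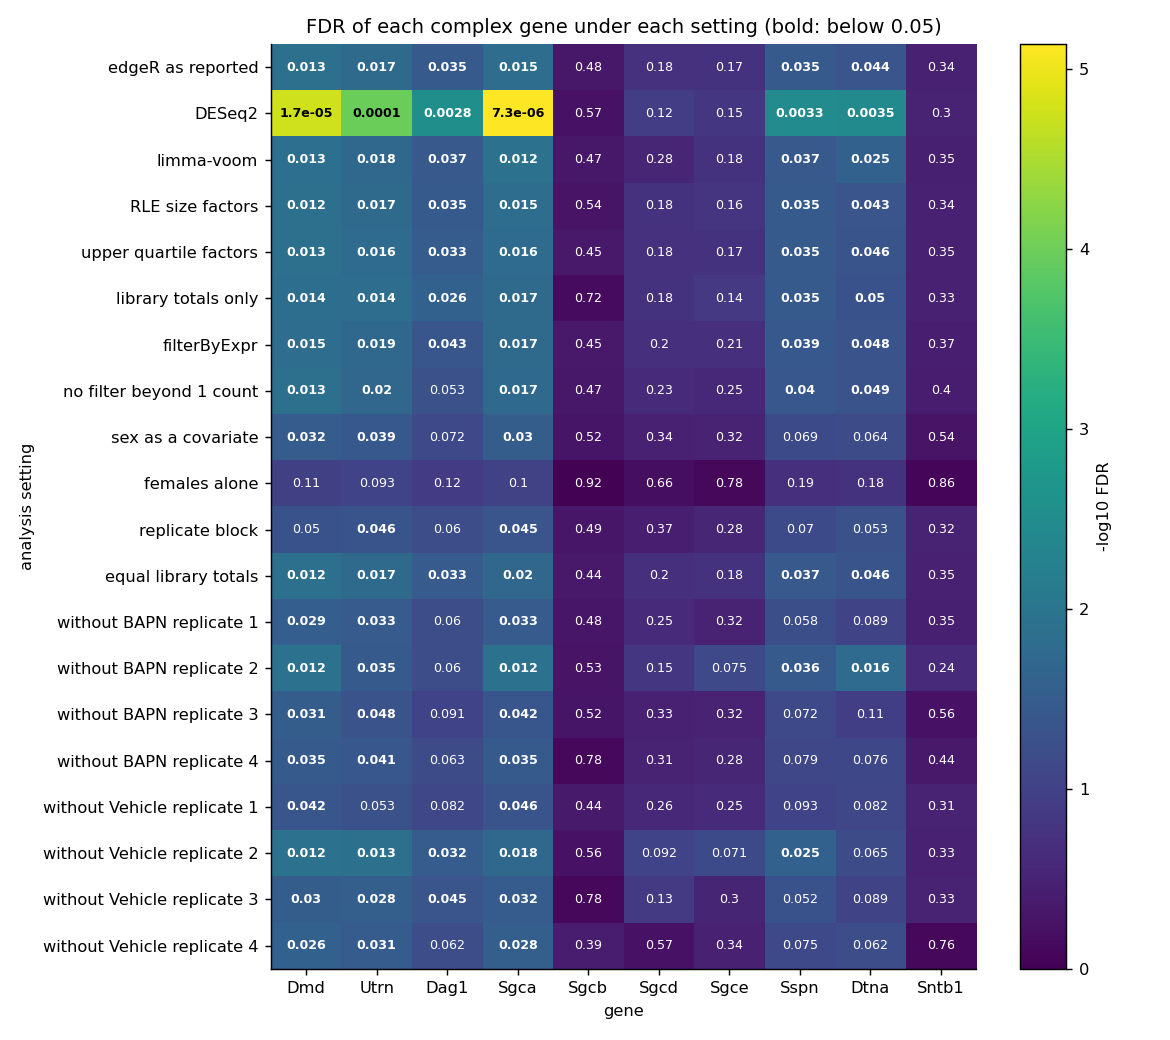
FDR of each of the 10 complex genes under the fit of the report and its alternatives, with colour for -log10 of the FDR and bold type where the FDR was below 0.05. Dmd, Utrn and Sgca were called in most settings, Dag1, Sspn and Dtna were lost in many of the fits that left out 1 library, and Sgcb, Sgcd, Sgce and Sntb1 were called in none.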

How the data were processed

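Total RNA of 8 rat AVF outflow veins was depleted of ribosomal RNA and sequenced in stranded libraries by the authors. Per the labels, bcl2fastq 2.17, Trim Galore and STAR were used. The counting tool, its strand setting and the genome build are not given in the sources used here. The deposited counts are whole, unnormalized reads per gene for 32623 Ensembl genes. Group, replicate number and sex came from the labels.

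The test took genes whose base mean (DESeq2 1.42.0 size factors) was 100 or more, as in the study's methods, leaving 11682 that held 99.5% to 99.66% of the counts. BAPN was compared with vehicle by edgeR 4.0.16 (TMM, quasi-likelihood F test, no covariate) in R 4.3.3, with FDR over all tested genes and SE from limma 3.58.1 (voom). Across the table, 1957 genes were called (16.8%). The Dmd to Utrn ratio was compared by an exact two-sided permutation test over 70 arrangements. On simulated counts with 11682 genes, edgeR recovered 82.5% of 200 genes changed by 1.5 on the log2 scale, with 8 false calls. Smaller changes were not simulated. No pair of libraries of a group agreed within counting noise (chi-square per degree of freedom 68.58 to 320.8).

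The complex genes and all lists were chosen with earlier results of these data known. Named genes are the 10, the other complex genes, and in each list the 3 with the highest mean CPM and the 3 with the smallest p, or some of these. Some genes of the lists are not reported here and were left out of their counts. Marker genes, Lama2, Nos1 and Col1a1 were named beside the results they touch. Alternatives were DESeq2, limma-voom, other scalings, other filters, equal library totals, a block for the replicate number, a sex covariate, the females on their own, and each library left out. Promoters and gene spans came from RefSeq tables of GRCr8, in which 93.13% of tested genes were matched by symbol. Since the build behind the counts is unknown, no coordinates are given other than those of the printed RefSeq promoter windows.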

Additional observations from a re-analysis of the deposited data

Results flagged for a closer look

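Among 26 groups of 4 libraries (13 tested complex genes in each treatment), 2 had 1 library far from the other 3, where about 1 in 20 such groups would by chance. Dag1, the dystroglycan gene, was at 174.7 CPM in BAPN 3 and between 227.6 and 233.2 CPM in the other BAPN libraries. Sgcb, the β-sarcoglycan gene, was at 88.12 CPM in BAPN 4, the one male of that group, and between 77.41 and 78.28 CPM in the others.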

How the results depend on the processing

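The number of genes called over the whole table was 1957 and became 3202 with DESeq2, 930 with sex as a covariate, 89 in females alone and 397 to 2215 when 1 library was left out. The lowest of these was without Vehicle 1 and the highest without Vehicle 2. Of the 6 complex genes called lower, 3 were called with sex as a covariate, 0 by edgeR in females alone (6 at an unadjusted p below 0.05), and 2 to 5 when 1 library was left out. The cause was not tested. Dmd and Sgca remained without Vehicle 1. Without a filter on low counts Dag1 was lost (FDR = 0.053). With library totals alone as the scaling, 69.7% of calls were lower, against 55.2% with TMM, and the same 6 complex genes were called. No alternative called a complex gene of the 10 higher. The Dmd to Utrn log2 ratio difference stayed between -0.35 and -0.13. The log2 fold change of Dtnb turned to 0.0126 in females alone and ran from -0.20 to 0.0001 when 1 library was left out. With the replicate number as a block, 2 of the 6 complex genes (Utrn and Sgca) and 556 genes in all were called, and the Dmd to Utrn ratio gave p = 0.5 by the exact test over pairs. Same-numbered libraries correlated between -0.341 and 0.312, and 2 of 8 libraries correlated best with their own number, so the numbers were not taken as pairs. The Dpm1 call and the Sntb2 call (FDR = 0.0528) were lost under the block, which left 1 ligand, 2 cytoplasmic partners and 1 gene of the integrin link called lower. In females alone edgeR called 0 genes of these lists lower (3, 7 and 5 at an unadjusted p below 0.05). With library totals made equal, Sgca, which rested on 51 to 151 reads a library, was at -1.84 (FDR = 0.0201).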

Other observations

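Some partners of the complex had too few reads for a test, and their counts are given as values. Nos1, the neuronal nitric oxide synthase that syntrophin anchors in skeletal muscle, had 45, 26, 41 and 45 reads in BAPN 1 to 4 and, in Vehicle 1 to 4, 224, 36, 48 and 4 reads, so that Vehicle 1 and Vehicle 4 lay at opposite ends of one group. Sntg2, the gene of γ2-syntrophin, had 158, 118, 185 and 61 reads in BAPN 1 to 4 and, in Vehicle 1 to 4, 26, 18, 3 and 70 reads. The BAPN libraries held more reads in all, and neither gene was compared between the groups.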
